A study of Mus musculus with 25 samples.

Results

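A set of 10 transcripts that mark keratinocytes and the hair follicle was followed through sorted mouse skin macrophages and fibroblasts: Krt5, Krt14, Krt15, Trp63, Krt1, Krt10, Krt17, Sfn, Dsp and Epcam. They were taken by symbol from the skin table, where 10 of 10 were found among 12661 genes, and each was read in all 13 skin libraries. The symbols name textbook epithelial markers, and they were chosen by their measured levels in these skin libraries, which were already known when the set was drawn up. The levels, fold changes and p-values of the 10 genes are therefore descriptions, and none is independent evidence of a difference.

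The series holds 25 bulk RNA-seq libraries of sorted cells, 12 from lung and 13 from skin, made to ask how macrophages and fibroblasts differ when neutrophils are removed. Depleted mice carried the genotype Mrp8_CRE; Rosa26_DTR, in which the promoter of Mrp8 (S100a8, a gene of neutrophils and some other myeloid cells) drives Cre and Cre switches on a diphtheria toxin receptor. Control mice were Mrp8_WT; Rosa26_DTR. Both were C57BL/6, and every mouse, controls included, was given 10 µg/kg diphtheria toxin into the peritoneum for 7 days. The labels state no age. The skin libraries comprise 4 of macrophages from depleted mice (numbered 1, 2, 3 and 5), 3 labelled as macrophages from control mice (1, 3 and 5), 3 of fibroblasts from depleted mice (2, 4 and 5) and 3 of fibroblasts from control mice (3, 4 and 5). They are called depleted macrophages 1, control fibroblasts 3 and so on. Nothing in the labels says whether libraries of a group came from separate mice, so p-values measure the spread between these libraries, which may be technical.

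Keratinocytes build the outer layer of skin. Cells on the basement membrane make the keratin pair Krt5 and Krt14 under the control of the transcription factor Trp63, and replace that pair with Krt1 and Krt10 when they leave the membrane and differentiate. Krt15 marks basal cells and the stem cells of the hair follicle bulge, Krt17 the follicle and wounded or otherwise stressed epidermis, and desmosomes, to which Dsp ties keratin filaments, hold the layers together. Sfn is 14-3-3 sigma, an epithelial adaptor protein, and Epcam is a surface adhesion protein of simple epithelia, of hair follicle cells and, in mouse epidermis, of Langerhans cells. The keratins and Trp63 are not part of the known programme of a macrophage or a dermal fibroblast. Macrophages were sorted for CD45, CD11b, CD68 and F4/80, and fibroblasts for CD90.1 and PDGFRA among cells without CD45, CD31 and EPCAM, so EPCAM protein on the surface was a criterion for exclusion in the fibroblast sort only.

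Promoters of 6 of the 10 genes were matched in RefSeq (GRCm38.p6): Krt5, Krt10, Krt14, Sfn, Dsp and Epcam. Those of basal Krt5, suprabasal Krt10 and Epcam are shown, each as the 250 bases before the annotated start. Their log2 fold changes for macrophages over fibroblasts of depleted mice were unlike, at -0.85, -3.19 and 2.08. Only Krt10 of these had a limma adjusted p below 0.05, and the levels of each gene overlapped between those groups. Krt5 lies at chr15:101712906-101713155 and Krt10 at chr11:99389365-99389614, both on the minus strand, and Epcam at chr17:87635729-87635978 on the plus strand, all printed 5′ to 3′ in the direction of transcription. Capitals mark TATAAA in Krt10, ATAAAA in Krt5 and Epcam, and ACCGGT and CCGCCC, the reverse complement of GGGCGG, in Epcam.
Krt5: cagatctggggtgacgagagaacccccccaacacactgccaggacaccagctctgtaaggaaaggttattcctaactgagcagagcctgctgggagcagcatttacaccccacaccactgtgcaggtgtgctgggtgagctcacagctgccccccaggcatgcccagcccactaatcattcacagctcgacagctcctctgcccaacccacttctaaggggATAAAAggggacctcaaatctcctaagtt
Krt10: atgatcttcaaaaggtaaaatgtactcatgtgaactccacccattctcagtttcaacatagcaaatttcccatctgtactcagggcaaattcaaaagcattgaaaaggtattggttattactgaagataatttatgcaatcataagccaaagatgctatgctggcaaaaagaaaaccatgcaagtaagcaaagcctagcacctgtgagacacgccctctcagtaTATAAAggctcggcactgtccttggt
Epcam: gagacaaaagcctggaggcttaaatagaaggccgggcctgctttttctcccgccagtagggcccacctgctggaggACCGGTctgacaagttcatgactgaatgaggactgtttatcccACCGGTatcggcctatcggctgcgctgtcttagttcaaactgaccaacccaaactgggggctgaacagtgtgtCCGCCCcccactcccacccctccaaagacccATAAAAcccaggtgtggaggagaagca

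The letters were searched on both strands after the sequences had been seen, and TATAAA and ATAAAA can overlap each other. TATAAA lay 26 to 21 bases before the start of Krt10, the place of a TATA box, and 12.4% of 32851 mouse promoter windows of the same length hold it. ATAAAA lay 29 to 24 bases before the start of Krt5 and 27 to 22 bases before that of Epcam, and 17.0% of windows hold it. ACCGGT occurred at 174 to 169 and at 131 to 126 bases before the start of Epcam, against 1.86% of windows that hold it at least once. GGGCGG, the core of a GC box, occurred once in Epcam and 4 times in Dsp, and in 32.7% of windows. TGANTCA, the letters of an AP-1 site, was in 0 of the 6 and in 6.75% of windows.

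The skin libraries held 6553115 to 27259903 estimated reads, so that 1 read was worth 0.0371 to 0.162 units of the normalised value, the unit in which levels are given. Depleted macrophages 1 was the shallowest library and had 22.2% of its genes at 0 reads, the highest share of the 13. Control macrophages 1 and control macrophages 5 are labelled as macrophages but carry a fibroblast profile. Ptprc, which encodes CD45, was at 0.277 in control macrophages 1 and 0.209 in control macrophages 5, and Cd68 at 0.390 in control macrophages 1 and 0.905 in control macrophages 5, against 1887 for Cd68 in control macrophages 3. Col1a1, a chain of fibroblast collagen, was at 15309 in control macrophages 1 and 28883 in control macrophages 5, against 267 in control macrophages 3. The title of control macrophages 5 also reads SKIN_MFIBRO_WT5, while its cell type label gives macrophages. Values of the 2 libraries are shown apart, and comparisons that rest on them are given with and without them.

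All 10 transcripts were present in both sorted populations. Their summed level made up 0.136 to 0.322% of the estimated reads in the 4 depleted macrophage libraries and 0.585% in control macrophages 3. It was 0.127% in depleted fibroblasts 2, 1.55% in depleted fibroblasts 4 and 1.48% in depleted fibroblasts 5, against 0.277, 0.421 and 0.410% in control fibroblasts 3, 4 and 5. The libraries with a fibroblast profile had 0.269% in control macrophages 1 and 0.435% in control macrophages 5. The lowest and the highest share of the series' skin libraries were therefore both in depleted fibroblasts. In bulk RNA, a larger number of contributing cells and more RNA per contributing cell cannot be told apart.

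**Figure D1:**
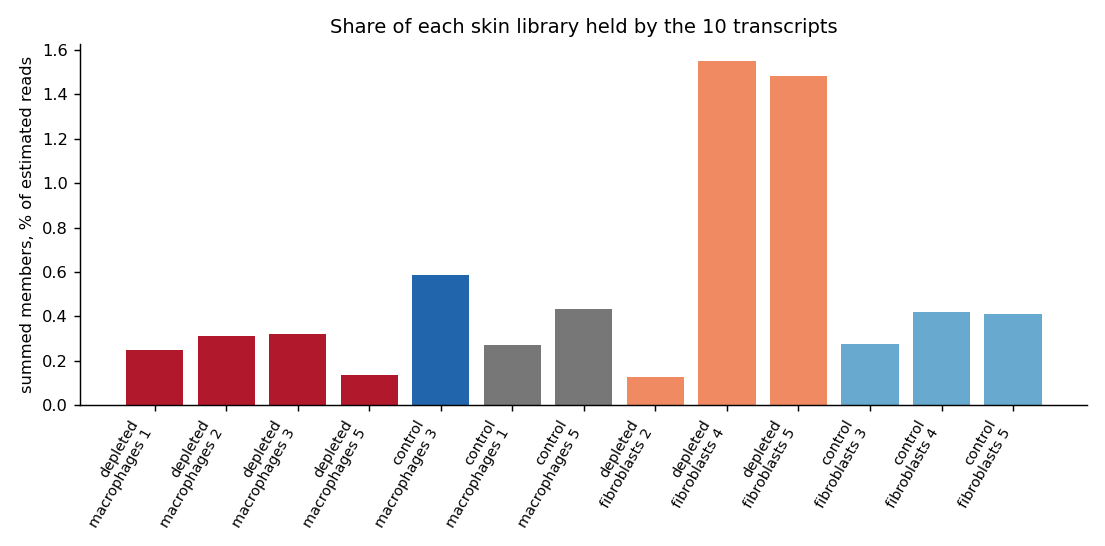
Summed level of the 10 transcripts as a percentage of the estimated reads of each of the 13 skin libraries (1 bar per library; red depleted macrophages, dark blue control macrophages 3, grey the 2 control macrophage libraries with a fibroblast profile, orange depleted fibroblasts, light blue control fibroblasts). Depleted fibroblasts 4 and 5 stand at 1.55 and 1.48%, above the other 11 libraries, and depleted fibroblasts 2 at 0.127% is the lowest bar.

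Per kilobase of exon, Krt15 and Krt14 were the most abundant of the 10 in each set of libraries. On this scale Krt15 averaged 565 units per kilobase in depleted macrophages, 1438 in depleted fibroblasts and 518 in control fibroblasts. Krt14 averaged 555 units per kilobase in depleted macrophages, 1362 in depleted fibroblasts and 593 in control fibroblasts. Krt15 and Krt14 differed by less than their SD in each of those groups, so their order is not resolved. Krt5 and Krt10 came next. Krt5 averaged 229 and Krt10 66.95 units per kilobase in depleted macrophages, Krt5 519 and Krt10 899 in depleted fibroblasts, and Krt5 261 and Krt10 264 in control fibroblasts. In both fibroblast groups the gap was smaller than the larger of the SDs, so the order of Krt5 and Krt10 is not resolved there. Epcam held the sixth place in depleted macrophages at 37.2 units per kilobase and the last place in depleted fibroblasts at 10.7 and in control fibroblasts at 3.92.

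Among the groups of several libraries, the basal keratins spread most widely in the depleted fibroblasts. Krt14 was at 867, 1242, 1369 and 424 in depleted macrophages 1, 2, 3 and 5 and at 2318 in control macrophages 3. It was at 377, 3453 and 3354 in depleted fibroblasts 2, 4 and 5, against 744, 1142 and 1243 in control fibroblasts 3, 4 and 5. Depleted fibroblasts 4 and 5 were the 2 highest of the 13 libraries and depleted fibroblasts 2 the lowest, so the depleted group spanned the control group on both sides. Control macrophages 1 at 885 and control macrophages 5 at 1272 lay inside or just above the range of the control fibroblasts.

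Its partner Krt5 was at 410, 657, 780 and 164 in depleted macrophages and at 1777 in control macrophages 3, the highest Krt5 value of all libraries. In depleted fibroblasts Krt5 was at 179, 1685 and 1558, against 658, 439 and 621 in control fibroblasts. Krt15 was at 1073, 1215, 1042 and 660.4 in depleted macrophages and at 1838 in control macrophages 3. In depleted fibroblasts Krt15 was at 279, 3614 and 3728, against 492, 1259.6 and 997 in control fibroblasts. Each of the 3 keratins thus had control macrophages 3 above all 4 depleted macrophages, and the depleted fibroblasts split into 1 library below and 2 above the controls. Trp63, the basal transcription factor, was far lower in level, at 22.2, 44.97, 38.9 and 20.6 in depleted macrophages, 56.0 in control macrophages 3, 35.5, 178 and 237 in depleted fibroblasts and 38.7, 47.0 and 56.9 in control fibroblasts.

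Krt10, the suprabasal keratin, was lower in macrophage libraries than in 5 of the 6 fibroblast libraries, and Krt1 was low in most. Krt10 was at 60.6, 146, 275 and 85.1 in depleted macrophages and at 245 in control macrophages 3. In depleted fibroblasts Krt10 was at 187, 3398 and 2118, against 576, 571 and 528 in control fibroblasts. The 3 control fibroblast libraries were nearly equal for Krt10, at 558 ± 26.6 (SD, n = 3), whereas the 3 depleted ones had a mean of 1901 with an SD of 1616. Krt1, the partner of Krt10, was much lower, with 0 reads in depleted macrophages 1 and values of 14.3, 37.9 and 3.39 in depleted macrophages 2, 3 and 5, against 47.7 in control macrophages 3. In fibroblasts Krt1 was at 22, 384 and 269.9 in the depleted libraries and 17.6, 27.2 and 30.7 in the controls.

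Sfn was at 83.0, 111, 129 and 58.7 in depleted macrophages and at 183 in control macrophages 3. In depleted fibroblasts Sfn was at 39.8, 1102 and 601, against 18.0, 144 and 93.8 in control fibroblasts. Dsp, which links desmosomes to keratin, was even among depleted macrophages at 35.0, 44.8, 44.2 and 34.1, with 106 in control macrophages 3. In depleted fibroblasts Dsp was at 17.1, 727 and 362, against 90.4, 121 and 147 in control fibroblasts. The 42.5-fold difference between depleted fibroblasts 4 and 2 for Dsp was the widest of the 10 genes between that pair of libraries. Sfn followed at 27.7-fold, Krt10 at 18.1-fold and Krt1 at 17.5-fold, while Krt14 and Krt5 differed by 9.16-fold and 9.44-fold and Krt17 by 1.55-fold.

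Krt17 was low everywhere. It had 0 reads in depleted macrophages 1, values of 3.67, 15.1 and 7.51 in depleted macrophages 2, 3 and 5, and 0.165 in control macrophages 3, where it rests on an estimate of 2.24 reads. In depleted fibroblasts Krt17 was at 13.1, 20.4 and 73.6, against 11.3, 3.27 and 9.73 in control fibroblasts, and it was the one member of the 10 whose depleted and control fibroblasts did not overlap. The depleted fibroblasts were all above the controls for 4.50% of the 12661 genes as well, so 1 in 10 is not a result about the members. Krt17 and the other type I keratins are close relatives, and the estimator split reads between similar genes: the recovered reads of Krt5, Krt10 and Krt14 were whole numbers in 0 of 13 libraries, and those of Krt15 and Krt17 in 1 of 13. Differences between single keratins are uncertain for that reason, in particular for low Krt17.

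Epcam had the opposite distribution. It was at 104, 101, 92.9 and 28.8 in depleted macrophages 1, 2, 3 and 5 and at 62.6 in control macrophages 3. In depleted fibroblasts Epcam was at 3.93, 42.4 and 24.1, against 0.305, 9.51 and 16.0 in control fibroblasts, where the lowest value stands for 4 reads. Control macrophages 1 at 18.9 and control macrophages 5 at 12.6 were below all 4 depleted macrophage libraries, and depleted macrophages 5 was the only one of the 5 libraries with a macrophage profile within the range of the fibroblasts. Epcam was thus the one member of the 10 with a higher mean in depleted macrophages, 81.6 ± 35.5 (SD, n = 4), than in depleted fibroblasts, 23.5 ± 19.2 (SD, n = 3).

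**Figure D2:**
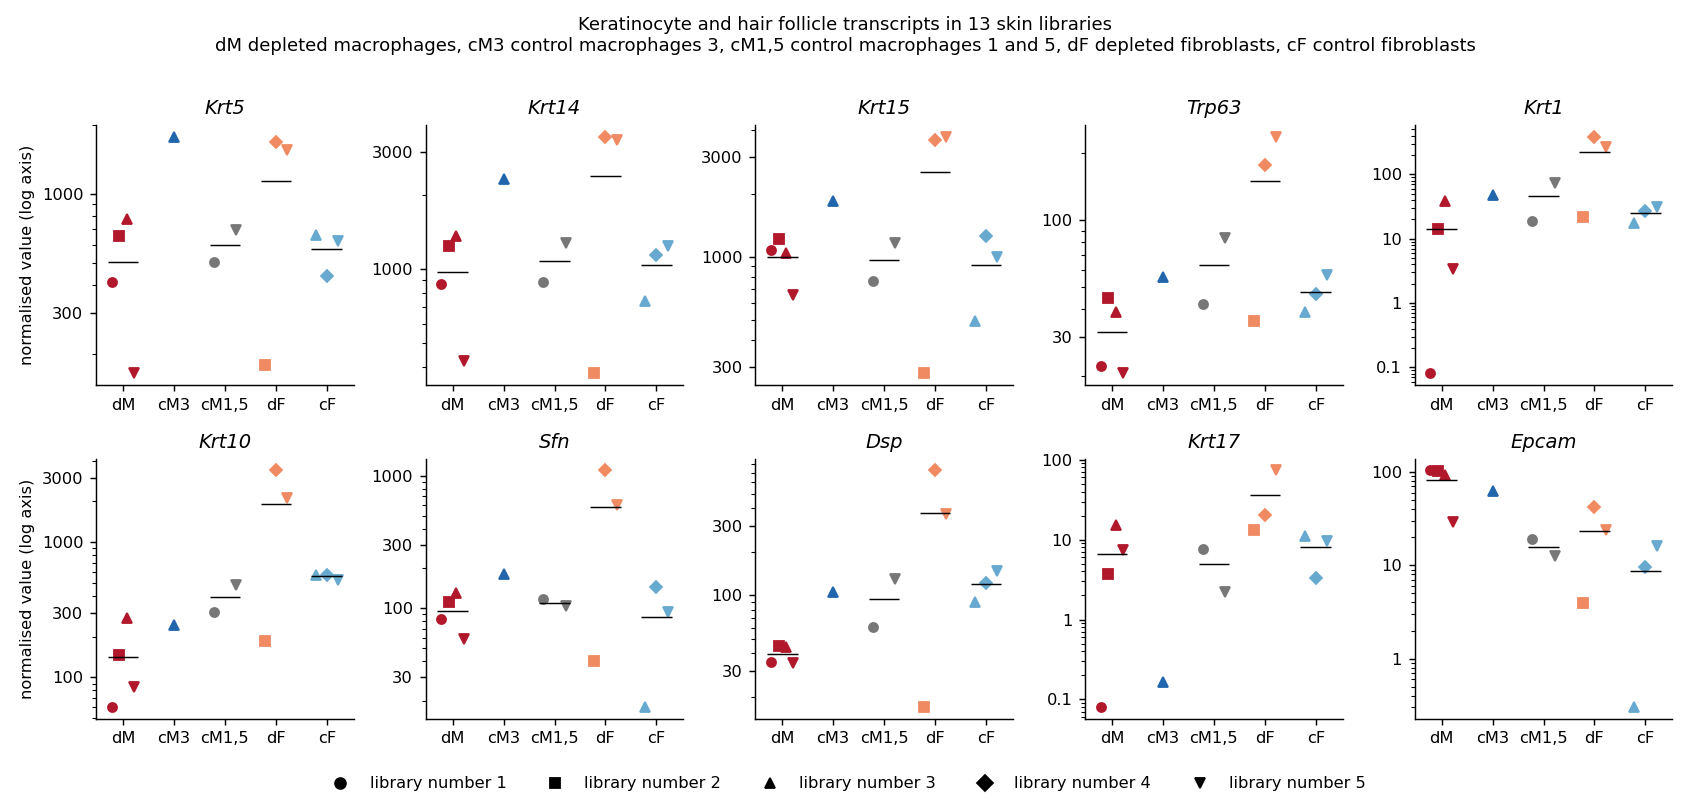
Normalised value (log axis) of each of the 10 transcripts in the 13 skin libraries; each point is 1 library, its shape gives the library number and the line is the group mean. For 10 of 10 genes, against 12.2% of all genes, depleted fibroblasts 4 and 5 lie above every control fibroblast library, depleted fibroblasts 2 lies below them all for 6 genes, against 16.4% of all genes, and the points of depleted macrophages 1 for Krt1 and Krt17 stand for 0 reads.

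Of the 2 control macrophage libraries with a fibroblast profile, control macrophages 1 lay within the range of the control fibroblasts for 7 members. Control macrophages 5 did so for 4, with 4 members above that range and 2 below. Depleted macrophages 2, with a macrophage profile, lay within it for 6. In control macrophages 1, Krt5 was at 504, Krt15 at 768, Trp63 at 42.3, Krt1 at 18.6, Krt10 at 305, Sfn at 117, Dsp at 60.3 and Krt17 at 7.71. In control macrophages 5, Krt5 was at 697, Krt15 at 1157, Trp63 at 83.6, Krt1 at 73.8, Krt10 at 481, Sfn at 104, Dsp at 129 and Krt17 at 2.22. Krt10 was lower in both than in each control fibroblast library. For the other 9 members at least 1 of the 2 libraries lay within the range of the control fibroblasts. Of all 12661 genes 8.28% were lower in both in the same way, near the 1 in 10 of the members.

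The 3 depleted fibroblast libraries did not behave as 1 group. Depleted fibroblasts 4 and 5 lay above every control fibroblast library for 10 of 10 members, against 12.2% of the 12661 genes. Depleted fibroblasts 2 lay below every control for 6 members, against 16.4% of all genes, above every control for 1, against 21.4%, and within their range for 3. The members were chosen with these levels known, so the shares are a description. The median log2 fold change of depleted over control fibroblasts was 1.13 for the 10 genes and 0.03 for the 11780 genes tested, but 0 of the 10 was called at an adjusted p below 0.05 (limma, Benjamini-Hochberg), against a background of 0% of the genes tested. At an unadjusted limma p below 0.05, 282 genes, 2.39% of those tested, and 1 member passed. Voom on the estimated reads also called 0 genes. Krt1 had a log2 fold change of 2.39 ± 0.84 (SE; limma adjusted p = 0.956), Sfn 2.23 ± 1.05, Krt17 1.79 ± 0.89, Epcam 1.54 ± 1.24, Trp63 1.27 ± 0.60, Krt10 0.99 ± 0.80, Krt15 0.87 ± 0.81, Krt14 0.68 ± 0.69, Dsp 0.51 ± 1.01 and Krt5 0.46 ± 0.68.

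Library 2 decided that result. Without it, 16 of 11956 genes were called, a background of 0.134%, and 4 of the 16 were members, all 4 higher in the remaining depleted fibroblasts. The log2 fold change was then 3.66 ± 0.44 for Krt1 (limma adjusted p = 0.00649), 2.26 ± 0.32 for Krt10 (0.00870), 3.68 ± 0.63 for Sfn (0.0344) and 2.12 ± 0.37 for Dsp (0.0362). Krt1 and Krt10 are the keratin pair of the suprabasal layers. The basal genes did not pass: the log2 fold change was 1.52 for Krt5 (limma adjusted p = 0.0851), 1.74 for Krt14 (0.0726), 2.11 for Trp63 (0.0634) and 2.11 for Krt15 (0.0602). Whether Krt1 and Krt10 moved more than Krt5 and Krt14 was not tested. Depleted fibroblasts 2 had the lowest summed level of the members, which were chosen with these levels known. The calls without that library are therefore a description.

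The same libraries differed in fibroblast genes. The 7 fibroblast markers summed to 66263 in depleted fibroblasts 2, 48516 in depleted fibroblasts 4 and 48660 in depleted fibroblasts 5, against 76556, 80946 and 93293 in the controls, with 0 of the 7 at 0 reads in any of these libraries. Other lists were mixed, and 0 genes of any list were called by limma. Krt2, a keratin of late differentiation, was at 153, 4117 and 2858 in depleted fibroblasts 2, 4 and 5, against 439.7, 747 and 502 in control fibroblasts, and Krtdap, a secreted protein of suprabasal cells, at 80.7, 2333 and 819, against 326, 180.5 and 197.9. Outside the members, 13 of 13 suprabasal and cornified envelope genes tested had a positive log2 fold change with a median of 1.33, as had 9 of 11 basal and hemidesmosome genes with a median of 0.56 and 8 of 10 desmosome genes with a median of 0.45. So had 15 of 16 genes of epithelial adhesion and epithelial transcription factors, with a median of 0.90, and 3 of 3 hair shaft and inner root sheath genes, with a median of 0.57. Hair follicle stem cell and outer root sheath genes had 4 positive and 5 negative values of 9, with a median of -0.02, sebaceous gland genes 2 positive and 3 negative of 5, with a median of -0.01, and simple epithelial keratins 1 of each, against a median of 0.03 over all genes. The part of the fibroblast share of each library in these values was not tested.

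The macrophage comparison was limited by its controls. As labelled, with 4 depleted against 3 control libraries, 0 of 11716 genes were called by limma, a background of 0%, and 0 of 10 members. At an unadjusted limma p below 0.05 there were 2469 genes, 21.1% of those tested, and 3 members, and voom called 0. Members had a median log2 fold change of -0.78, against -0.09 over all genes tested. Against control macrophages 3 alone, the one control library with a macrophage profile, 0 of 12028 genes were called, again 0%, with 840 genes and 4 members at an unadjusted p below 0.05 and 0 calls by voom. That fit assumes that the lone control library varies like the depleted ones. The members' median was then -1.01, against -0.10 over all genes.

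In all, 7 members were lower in each of the 4 depleted macrophage libraries than in control macrophages 3: Krt5, Krt14, Krt15, Trp63, Krt1, Sfn and Dsp. Of all 12661 genes 24.5% were lower in the same way. The log2 fold changes against that library were -2.04 ± 0.72 for Krt5, -1.38 ± 0.57 for Krt14, -0.92 ± 0.36 for Krt15, -0.88 ± 0.64 for Trp63, -2.69 ± 1.797 for Krt1, -0.99 ± 0.46 for Sfn and -1.41 ± 0.46 for Dsp, with limma adjusted p-values between 0.549 and 0.845. Krt10 at -1.02 ± 0.70, Krt17 at 2.05 ± 1.47 and Epcam at 0.22 ± 0.69 overlapped it. With 1 control library these values compare the depleted libraries with that library. As labelled, the values were -0.98 for Krt5, -0.63 for Krt14, -0.28 for Krt15, -1.45 for Krt10 and 1.51 for Epcam, and adjusted p-values ran from 0.104 to 0.761. Against the 2 fibroblast-profile libraries, Epcam was higher, and Dsp and Krt10 lower, in all 4 depleted macrophage libraries. Of all genes 19.7% were higher and 23.9% lower in this way, so 1 and 2 of 10 members are near the background.

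A test of whether depletion moved the transcripts differently in macrophages and in fibroblasts, made without the 2 fibroblast-profile libraries, called 0 of 12661 genes, 0%, and 0 of 10 members. Its control macrophage arm is control macrophages 3 alone, which is assumed to vary like the other libraries. At an unadjusted p below 0.05 there were 534 genes and 1 member, and voom called 0. The difference of the log2 fold changes, macrophages minus fibroblasts, ran from -5.12 ± 2.09 for Krt1 to 0.36 ± 1.75 for Krt17, with limma adjusted p-values of 0.964 to 0.985. With 1 library in that arm, the values compare the other libraries with that library.

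Depleted mice gave 2 groups whose profiles match their labels, 4 macrophage and 3 fibroblast libraries, and there the transcripts were compared between cell types. Of 12079 genes, 24.0% were called, 11.4% higher and 12.7% lower in macrophages. Among the 10 members 3 were called, all lower in macrophages: Krt1 at a log2 fold change of -4.19 ± 1.26 (limma adjusted p = 0.0358), Krt10 at -3.19 ± 0.88 (0.0234) and Trp63 at -1.90 ± 0.61 (0.0477). A share of 3 in 10 is near the background of genes that separate the cell types. The basal keratins were not called, at -0.85 ± 0.77 for Krt5, -0.88 ± 0.72 for Krt14 and -0.68 ± 0.76 for Krt15, with limma adjusted p-values between 0.420 and 0.569. Sfn at -1.70, Dsp at -2.07 and Krt17 at -2.45 were not called either, and Epcam, at 2.08 ± 0.74, missed the threshold with an adjusted p of 0.0678.

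These calls rest on single libraries. The 2 groups overlapped for 10 of 10 members, while 33.3% of all 12661 genes did not overlap, since depleted fibroblasts 2 lay within or below the range of the macrophages for the 9 members lower in macrophages, and depleted macrophages 5 lay below depleted fibroblasts 4 for Epcam. Leaving out each of the 7 libraries in turn gave 0 to 8 members called: 8 without depleted fibroblasts 2 (Krt17 and Epcam were the exceptions), 0 without depleted fibroblasts 5 or depleted macrophages 1, 1 without depleted fibroblasts 4, depleted macrophages 2 or depleted macrophages 5, and 2 without depleted macrophages 3. Without depleted fibroblasts 4 the one call was Epcam, higher in macrophages at 2.73 (limma adjusted p = 0.0287), and without depleted macrophages 5 it was again Epcam at 2.51 (0.0421).

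**Figure D3:**
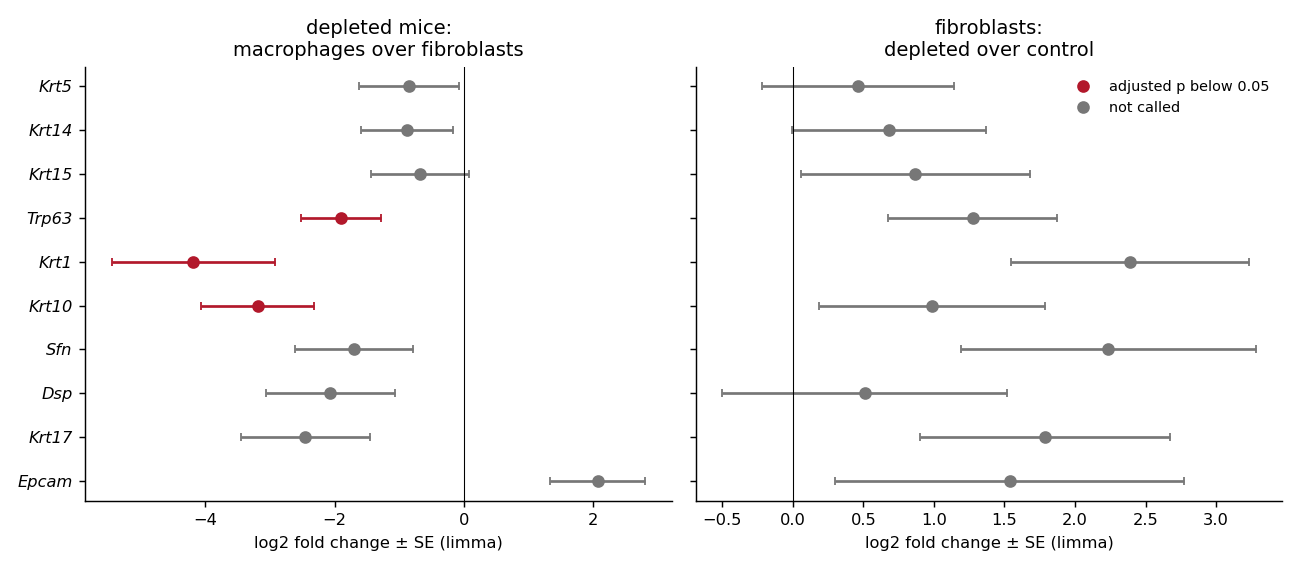
Log2 fold change with its standard error (limma) of the 10 transcripts for macrophages over fibroblasts of depleted mice (left, 4 against 3 libraries) and for depleted over control fibroblasts (right, 3 against 3); red marks an adjusted p below 0.05. On the left Krt1, Krt10 and Trp63 are called and Epcam alone is positive, at 2.08; on the right the 10 values are positive, from 0.46 to 2.39, and 0 are called.

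Ratios between members within a library do not depend on its total. Krt5 per 100 of Krt14 was 47.4, 52.9, 57.0 and 38.8 in depleted macrophages and 47.4, 48.8 and 46.5 in depleted fibroblasts. It was 76.6 in control macrophages 3 and 88.5, 38.4 and 50.0 in control fibroblasts. The proportion of the basal pair overlapped between the depleted libraries of both cell types, although Krt14 itself varied 9.16-fold among the fibroblasts. Krt15 per 100 of Krt14 was 124, 97.8, 76.1 and 156 in depleted macrophages and 74.0, 105 and 111 in depleted fibroblasts, which also overlap.

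Krt10 per 100 of Krt14 separated the cell types. It was 6.99, 11.7, 20.1 and 20.1 in depleted macrophages and 10.6 in control macrophages 3. It was 49.7, 98.4 and 63.1 in depleted fibroblasts and 77.5, 50.0 and 42.5 in control fibroblasts, so the lowest fibroblast library was above the highest macrophage library. Depleted fibroblasts 2, the library with the lowest summed level of the 10 members, was at 49.7 and on the fibroblast side. Control macrophages 1 at 34.5 and control macrophages 5 at 37.8 lay between the 2 ranges and nearer to the fibroblasts. Since the members were chosen with these values known, the separation is a description and was given no test. How many of all genes separate in the same way per 100 of Krt14 was not counted.

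Dsp per 100 of Krt14 was 4.04, 3.60, 3.23 and 8.05 in depleted macrophages, against 4.54, 21.1 and 10.8 in depleted fibroblasts, and Krt2 per 100 of Krt14 was 17.9, 15.6, 12.97 and 43.7 in depleted macrophages, against 40.5, 119 and 85.2 in depleted fibroblasts. Both overlapped between the cell types through depleted macrophages 5, the library with the lowest Krt14 of the macrophages. Col17a1, a collagen of the hemidesmosomes of basal cells, was 8.86, 3.91, 9.13 and 4.73 per 100 of Krt14 in depleted macrophages, against 7.44, 8.66 and 9.12 in depleted fibroblasts. Within the depleted libraries the split did not follow the layers in full. Per 100 of Krt14, basal Trp63 was at 2.57 to 4.86 in depleted macrophages, against 5.15 to 9.41 in depleted fibroblasts. The desmosome genes Dsc3, at 2.64 to 9.65 in depleted macrophages and 12.9 to 14.5 in depleted fibroblasts, and Perp, at 16.1 to 25.3 in depleted macrophages and 30.2 to 40.6 in depleted fibroblasts, did not overlap either, nor did suprabasal Krtdap, at 5.03 to 12.8 in depleted macrophages and 21.4 to 67.6 in depleted fibroblasts. Sfn overlapped, at 8.92 to 13.9 in depleted macrophages and 10.6 to 31.9 in depleted fibroblasts. In level, 33.3% of all 12661 genes did not overlap between these depleted libraries. The share of all genes for ratios to Krt14 was not counted, so these separations are not a result about epidermal genes. In the control fibroblasts Trp63 was at 4.11 to 5.20 and Perp at 21.3 to 38.2, so both overlapped the depleted macrophages there. Dsc3 at 10.8 to 24.2 and Krtdap at 15.8 to 43.9 in the control fibroblasts stayed above the depleted macrophages.

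**Figure D4:**
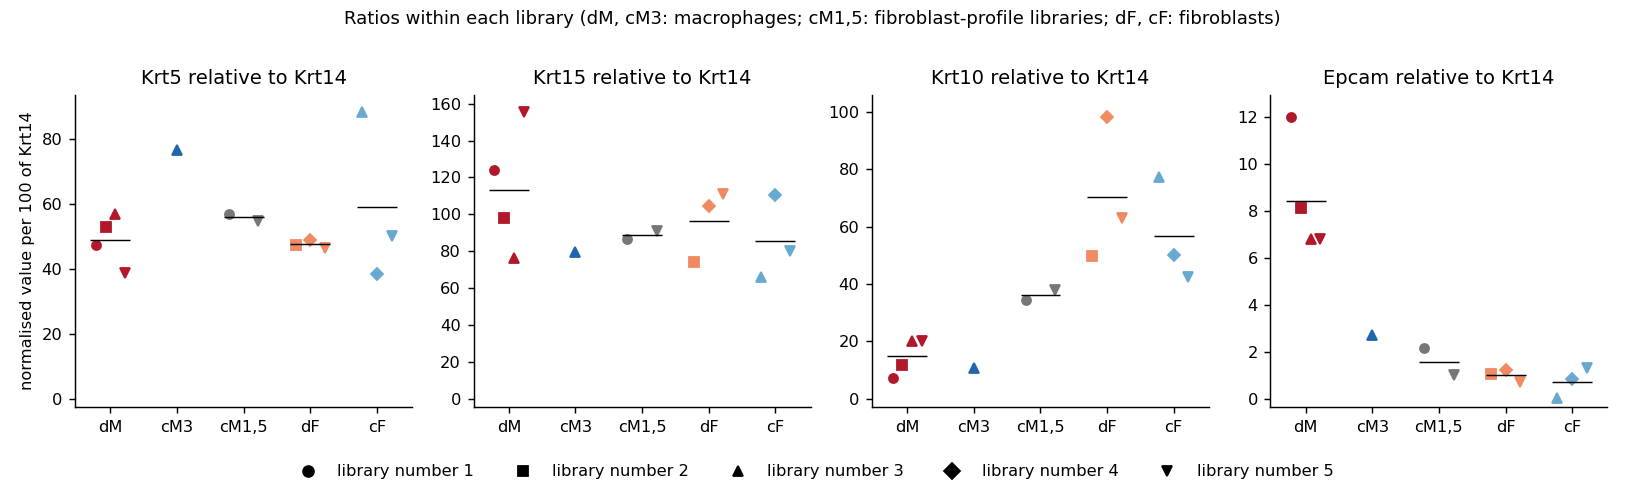
Normalised value of Krt5, Krt15, Krt10 and Epcam per 100 units of Krt14 in each of the 13 skin libraries (linear axes; each point is 1 library, its shape gives the library number, and lines are group means). Krt5 and Krt15 overlap between macrophages and fibroblasts, Krt10 lies at 6.99 to 20.1 in depleted macrophages and 49.7 to 98.4 in depleted fibroblasts, and Epcam at 6.79 to 11.97 in depleted macrophages and 0.719 to 1.23 in depleted fibroblasts.

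Other epidermal genes were counted from lists of layers and structures. Of 13 suprabasal and cornified envelope genes outside the members, 4 were called lower in macrophages of depleted mice: Krt2 (log2 fold change -2.77, limma adjusted p = 0.0492), Krtdap (-2.86, 0.0487), Sbsn (-3.02, 0.0288) and Sprr1a (-3.04, 0.0272). The median of the 13 was -2.63, against -0.11 over all genes. Of 11 basal and hemidesmosome genes 0 were called by limma, with a median of -1.07. Of 10 desmosome genes 3 were called lower, Dsg2 (-3.31), Dsc3 (-2.20) and Ppl (-2.07), with a median of -1.67. Every gene tested of these 3 lists had a negative log2 fold change in this fit, and the counts called stand beside the 12.7% of all genes called lower.

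These counts too moved with single libraries. Over the 7 fits that leave out 1 library, suprabasal genes called lower ranged from 0 to 9, basal genes from 0 to 4 and desmosome genes from 1 to 7, the highest without depleted fibroblasts 2. Krt2, Krtdap, Sbsn, Dsc3 and Ppl were called in 1 of the 7 fits, Sprr1a in 4, and Dsg2 in 7.

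Of 9 hair follicle stem cell and outer root sheath genes outside the members, 3 were called lower in macrophages, Cd34 (-6.66), Sox9 (-4.34) and Lrig1 (-2.91), and all 3 were called in 7 of 7 fits that leave out a library. These genes are not particular to the follicle: Cd34, a surface marker of bulge cells and of many stromal cells, was at 4.97, 10.2, 24.4 and 4.98 in depleted macrophages, against 1108, 928 and 1020.5 in depleted fibroblasts, and did not follow the members within the fibroblasts. Sox9 was at 103, 42.1 and 131 and Lrig1 at 15.6, 5.16 and 9.67 in depleted fibroblasts 2, 4 and 5, so neither was low in library 2. Of 3 hair shaft and inner root sheath genes tested 0 were called. Of 15 genes of epithelial adhesion and epithelial transcription factors, 2 were called lower in macrophages, Esrp2 (-3.80), in 7 of 7 such fits, and Tfap2c (-3.61), in 4 of 7, and Cdh1, E-cadherin, was not called at 0.34. Of 5 sebaceous gland genes, Mgst1 (-1.31) and Scd1 (-2.74) were called lower and Soat1 (2.15) higher, each in 7 of 7 such fits, and the 1 simple epithelial keratin tested was not called. Of all genes, 12.7% were called lower and 11.4% higher, so 2 of 15 is near the background. The other lists are too short to be read against it.

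Epcam in macrophages was set beside markers of other cells that the macrophage gate could hold. Cd207, which encodes langerin of Langerhans cells, was at 209, 152 and 195 in depleted macrophages 1, 2 and 3, 6.53 in depleted macrophages 5 and 135 in control macrophages 3. It was at 0.248, 0.0869 and 0.481 in depleted fibroblasts. The macrophage library with the least Cd207, depleted macrophages 5, was also the one with the least Epcam, at 28.8. In macrophages over fibroblasts of depleted mice, Cd207 had a log2 fold change of 6.01 and Cd74, an antigen presentation chaperone that other myeloid cells make too, one of 10.67, and both were called in 7 of 7 fits that leave out a library. Of the other Langerhans list genes, Cd24a at 0.53 was not called and Il34 was lower at -3.34, called in 6 of the 7. Il34 was on the list but is not read here as a marker of Langerhans cells. The summed level of the list, Epcam included, ran from 60448 to 84831 in depleted macrophages, almost wholly Cd74, and from 141 to 338 in depleted fibroblasts. The part of Langerhans cells in the Epcam values was not tested.

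Per 100 of Krt14, Epcam was 11.97, 8.12, 6.79 and 6.80 in depleted macrophages and 2.70 in control macrophages 3, against 1.04, 1.23 and 0.719 in depleted fibroblasts and 0.0410, 0.832 and 1.29 in control fibroblasts. Depleted macrophages 5 did not stand apart on this scale, since its Krt14 was low as well. In fibroblast libraries, which were sorted against EPCAM protein, Epcam was highest in depleted fibroblasts 4, where Krt5, Krt14, Krt1 and Krt10 were also highest of the fibroblasts, while Krt15 and Krt17 were highest in depleted fibroblasts 5.

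**Figure D5:**
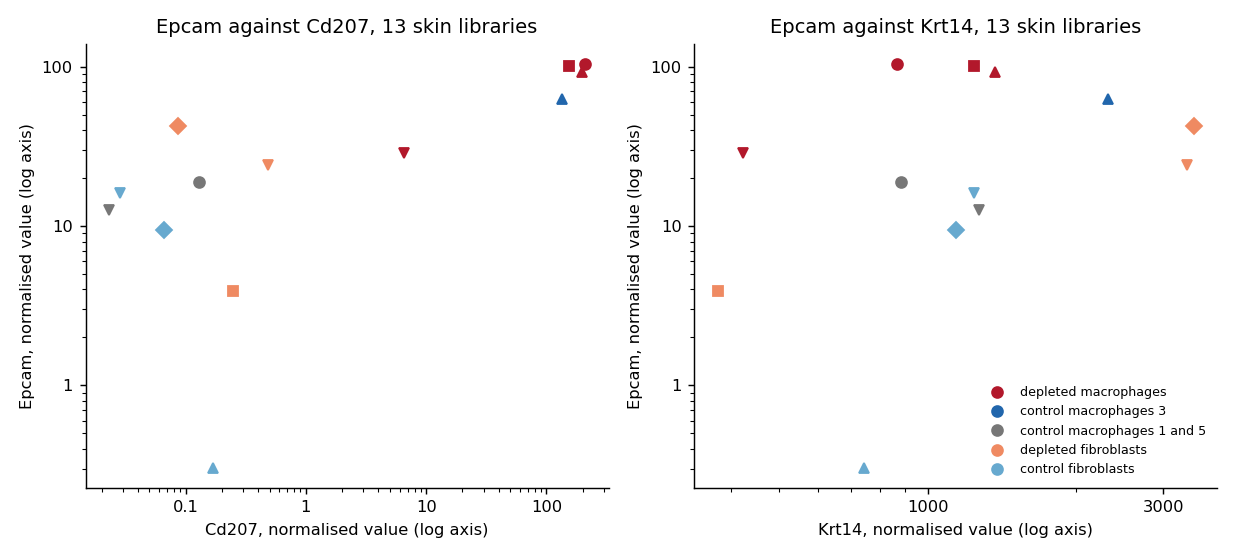
Normalised value of Epcam against Cd207 (left) and against Krt14 (right) in the 13 skin libraries, on log axes; each point is 1 library, coloured by group, with the shapes of the library numbers 1 to 5 as in the plot of levels by library. The macrophage libraries with 135 to 209 of Cd207 have 62.6 to 104 of Epcam, depleted macrophages 5 has 6.53 and 28.8, and among fibroblasts Epcam is highest, at 42.4, in a library with high Krt14.

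T cell genes were also found in the macrophage libraries. Trdc, the delta chain of the receptor of the T cells that live among mouse keratinocytes, was at 48.2, 37.1, 48.2 and 13.9 in depleted macrophages and at 93.0 in control macrophages 3, against 0.297, 0.172 and 0.0283 in depleted fibroblasts. Of 5 T cell genes 4 were called higher in macrophages, and the list summed to 122 to 241 in depleted macrophages and 290 in control macrophages 3, against 0.388 to 1.36 in depleted fibroblasts. Cd3e was at 64.8, 26.7, 34.4 and 8.78 in depleted macrophages and 76.2 in control macrophages 3. Control macrophages 3 was thus highest of the macrophage libraries in Trdc and Cd3e as it was in Krt5, Krt14 and Krt15, and depleted macrophages 5 lowest. Of 3 mast cell genes 1, Cma1, was called higher in macrophages, in only 1 of 7 fits that leave out a library, and of 2 melanocyte genes 1 was called lower. The 1 endothelial gene, Pecam1, and 2 skeletal muscle genes were not called. The counts of these lists stand beside 11.4% of all genes called higher and 12.7% called lower. The defining genes of the sorts separated fully, with 8 of 8 macrophage markers higher and 7 of 7 fibroblast markers lower in macrophages. Their part in the keratinocyte values was not tested.

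Among themselves the members varied together in part. Over the 13 libraries the Pearson correlation of log2 values was between -0.29 and 0.95 over the 45 pairs of members, with a median of 0.69, and in the 6 fibroblast libraries alone between 0.37 and 0.99, with a median of 0.87. The lowest pairs over all libraries were Epcam with Krt17 and Epcam with Krt10. Outside the members, the genes whose log2 values were most like the mean log2 value of the 10 were Clca3a2 (r = 0.97), Pkp1, Serpinb5 and Anxa8 (0.95 each), Ckmt1 (0.94), Perp, Dmkn and Ly6d (0.93 each) and Capns2 and Calm4 (0.92 each), over the same 13 libraries. Pkp1 is plakophilin 1 of the desmosome, Perp a membrane protein of desmosomes, and Dmkn a secreted protein of the upper epidermis. Clca3a2 ranged from 81.2 to 156 in depleted macrophages and from 96.5 to 1583 in depleted fibroblasts, against 74.3 to 183 in control fibroblasts. These correlations share the library totals and the spread of depleted fibroblasts, and they describe likeness only.

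In lung, 2 of the 10 transcripts were in the table of 11867 genes, Krt10 and Epcam, at a far lower depth of 124075 to 385925 estimated reads per library. Krt10 had 1 read in the 3 depleted and 2 reads in the 3 control interstitial macrophage libraries, and 21 reads in the 3 depleted and 16 in the 3 control fibroblast libraries. Epcam had 15 reads in depleted and 20 in control lung macrophages, with means of 33.5 ± 16.4 and 30.1 ± 17.0 units (SD, n = 3 each), and 2 reads in depleted and 0 in control lung fibroblasts. As in skin, Epcam was higher in the macrophage than in the fibroblast libraries and Krt10 the reverse, on counts too low for more than that. The lung and skin tables were normalised separately, so their levels were not compared.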

How the data were processed

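RNA was measured in 13 skin and 12 lung libraries. Per the labels' protocols, cells were sorted, RNA was amplified with the Ovation Single Cell RNA-Seq System and single-end reads were sequenced. The submitters' processing notes name the build mm10 and limma 3.46, RSEM 1.7.1, cutadapt 1.7.1 and CASAVA 1.8, without saying what each did. For each tissue the authors deposited 1 table of normalised values, read here as signal on a linear scale; how they were normalised is not given in the sources used here. Each deposited signal equals a constant of its library times the reads plus an offset under 1 read, so the lowest value means 0 reads and read numbers were recovered. Within a tolerance of 0.01, 27.4 to 58.0% of skin values were whole reads, so they are estimates, not counts, and no count model was the main test.

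Identifiers matched symbols for 12641 skin genes, with 20 unmatched. The members, the gene lists and the tests were chosen with earlier results of these data known. Named genes are the 10 members, list genes of highest level or called, at most 4 per list, and the 10 genes most like the members' mean. Fits were two-sided in limma 3.58.1 (R 4.3.3), with eBayes and its variance trend. Values entered as log2(signal + 1.001), the pseudocount being 1 part in 1000000 of a mean library, so fold changes of low genes are understated. Genes below that level in too many libraries to fill the smaller group were left out, and p-values were adjusted by Benjamini-Hochberg over all genes tested. The fitting code was tested on simulated data. Alternatives covered the pseudocount, filter, scaling, variance model, threshold, replicate number as a block and each library left out; voom was added after the data were seen. Coordinates are from GENCODE M21 (GRCm38). Shares of genes whose groups do not overlap were counted over all 12661 skin genes, without a filter, after the data were seen. The skin libraries held 6553115 to 27259903 estimated reads.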

Additional observations from a re-analysis of the deposited data

Results flagged for a closer look

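Within the 4 depleted macrophage libraries, 25 values and ratios were examined for a library far from the other 3, of which chance marks about 1 in 20, and 4 were marked. The 25 are not independent, since most of the ratios divide by Krt14, so the 4 cannot be read against that rate. All 4 concern depleted macrophages 5. Epcam was low there, at 28.8, against 92.9 to 104 in depleted macrophages 1, 2 and 3. The ratios to Krt14 were high there: Dsp at 8.05 per 100 of Krt14, against 3.23 to 4.04 in the other 3, Sfn at 13.9, against 8.92 to 9.58, and Krt2 at 43.7, against 12.97 to 17.9. The same library had the lowest Krt14 of the 4, at 424, and the lowest Cd207, at 6.53.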

How the results depend on the processing

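The number of members called depended on the libraries and settings used. In depleted fibroblasts against controls it was 0 and ranged from 0 to 4 when a library was left out, the 4 without depleted fibroblasts 2. In macrophages as labelled it was 0 and ranged from 0 to 1, the 1 (Epcam, higher) without control macrophages 3, which leaves the 2 fibroblast-profile libraries as controls. Between macrophages and fibroblasts of depleted mice it was 3 and ranged from 0 to 8 when a library was left out; it was 1 with the pseudocount lowered 10-fold, 1 with voom, 0 without a variance trend and 0 at an adjusted p below 0.01. The cause was not tested. Over all genes, the comparison of macrophages as labelled called 0, but 2915 without control macrophages 3, 717 at an adjusted p below 0.1, 42 without a variance trend and 2 with the pseudocount raised 10-fold, and the one against control macrophages 3 alone called 63 without a filter.

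With the replicate number as a block (replicate block), 8 members and 87 genes were called in fibroblasts, 0 members in macrophages as labelled and 1 member between the cell types of depleted mice. In fibroblasts only the numbers 4 and 5 occur in both groups. Depleted fibroblasts 2 and control fibroblasts 3 therefore do not enter that contrast. Its 8 members are not a result of all libraries, and the fit is another way of leaving out depleted fibroblasts 2. Whether same-numbered libraries belong together is not stated in the labels, and so few pairs cannot decide it. Same-numbered fibroblast libraries correlated at -0.05 and 0.06 in their deviations from the group means. Those of macrophages as labelled correlated at 0.006, -0.02 and 0.09, and those of the cell type comparison at -0.02 and 0.15. The 0.09 and the 0.15 were the highest of all pairs in their comparisons, while in fibroblasts a pair of unlike numbers was highest, at 0.17.

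Over 890 values of single genes, 827 kept their direction and side of the threshold, 24 passed it, 29 lost it and 10 changed sign. None of the 10 was called. In fibroblasts Krt5 ranged from -0.10 to 1.52 and Dsp from -0.55 to 2.12 when a library was left out, negative without depleted fibroblasts 4 (Krt5 -0.095, Dsp -0.55) or 5 (Krt5 -0.0390, Dsp -0.0434). In macrophages as labelled Krt15 was 0.046 and Krt17 -0.035 without control macrophages 3. In the difference between cell types Krt17 was -0.51 with the pseudocount raised 10-fold, -0.34 with quantile normalisation, -0.15 without depleted fibroblasts 2 and -0.18 without depleted macrophages 3. Control macrophages 3 could not be left out where it was the only control.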
